A study of Saccharomyces cerevisiae with 3 samples.

Results

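The 60S assembly factors of budding yeast are the proteins that build the large ribosomal subunit and leave it before translation. The members were 51 genes listed by name, matched by symbol or synonym to the platform annotation of a tag array. Probes were found for 50 of them, of 5325 genes named on the array, and CIC1 was not analysed here. Tags were measured in genomic DNA of a Saccharomyces cerevisiae library grown as a pool, on 3 two-colour arrays, 1 for each of cycloheximide, rapamycin and tunicamycin. On all 3 arrays 43 members had a value. In this variomics library a strain holds many sequence variants of a single gene and carries short DNA tags by which the strain can be counted. The labels name it the pool of essential genes. Drug-selected DNA was labelled with Cy5 and DNA of the untreated pool with Cy3, after sporulation and growth in selective medium in every group. Amounts in the sample descriptions are 3 "vg" (tunicamycin), 20 ng (rapamycin) and 30 ng (cycloheximide), and the word "single" stands in the rapamycin description in place of pool. The sources used here do not explain these words, so the drug and the kind of selection cannot be told apart between arrays. Nor do they give the genotype of the host strain.

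Assembly of the 60S subunit starts in the nucleolus, where scaffold proteins, RNA-binding proteins and DEAD-box RNA helicases fold the precursor rRNA. GTPases and AAA ATPases then strip early factors from the particle in the nucleoplasm, export adaptors carry it through the nuclear pore, and the last factors are released in the cytoplasm. The pathway takes up much of the energy of a growing yeast cell, and its genes are turned down when TOR kinase is inhibited, as rapamycin does. Cycloheximide binds the finished 60S subunit and blocks elongation, and tunicamycin inhibits Alg7, which starts the N-linked glycan. Most assembly factors are needed for life in yeast, but a few can be deleted.

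Every value is a log2 ratio of drug-selected over untreated DNA after subtraction of the array median, so that 0 stands for the middle of all spots, most of which mark genes outside the essential pool. The direction of the ratio is likely from the dyes and is not stated with the values. A gene value is the mean of the measured probes of a gene, given with the SD between the probes of the array and their number n. No drug has a replicate array, so no test was made. The spread unit of an array is the median absolute deviation of its gene values scaled to an SD, and was 0.92 with cycloheximide, 1.06 with rapamycin and 0.91 with tunicamycin. A depletion call needed 2 or more measured probes, a gene value of at least 3 units below 0 and each probe at least 2 units below 0. Enrichment was called by the same rule above 0. These ratios do not tell a strain that was absent from the pool from a strain that stayed at the level of the array median.

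Strains of many 60S assembly factors were depleted after selection with each of the 3 drugs, and none was called enriched. At least 3 units below 0 lay 27 of 50 members with a value on the cycloheximide array, 29 of 43 on the rapamycin array and 31 of 50 on the tunicamycin array. Over all named genes these were 705 of 5192, 689 of 5110 and 756 of 5232. The median member stood at -3.05, -5.23 and -3.61 under cycloheximide, rapamycin and tunicamycin, against -0.04, -0.21 and -0.09 for all named genes. These member medians are 8.28-fold, 37.6-fold and 12.2-fold below the array median. The median percentile of the members among all genes was 12.2, 9.3 and 12.1. At least 2 probes were measured for 49, 26 and 41 of the 50 members. Of these, 26 of 49 (53.1%) were depleted under cycloheximide, where 15.2% of all genes were. Under rapamycin 11 of 26 (42.3%) were depleted, against 6.45% of all genes, and under tunicamycin 22 of 41 (53.7%), against 13.6%. Enrichment was called in 0 members on each array, against 0.0485%, 0.0747% and 0.12% of all genes. At a stricter threshold of 4 units for the mean and 3 for each probe, 10 members were depleted under cycloheximide, and when 1 probe sufficed, 25 were depleted under rapamycin. The shares over all genes at these settings are not given here. Over the members with 2 measured probes the rapamycin median was -3.90. The known targets of the drugs lie outside the group. TOR2 had 10.40 ± 0.04 (n = 2) under rapamycin, ALG7 had 7.19 ± 0.19 (n = 2) under tunicamycin, and RPL28, where cycloheximide resistance mutations are known, had 2.76 ± 2.33 (n = 2) under cycloheximide. TOR2 and ALG7 were called enriched and RPL28 was not. TOR1, the dispensable paralog of TOR2, had -0.11 ± 1.40 (n = 12) under rapamycin and is given here after its value was seen.

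**Figure D1:**
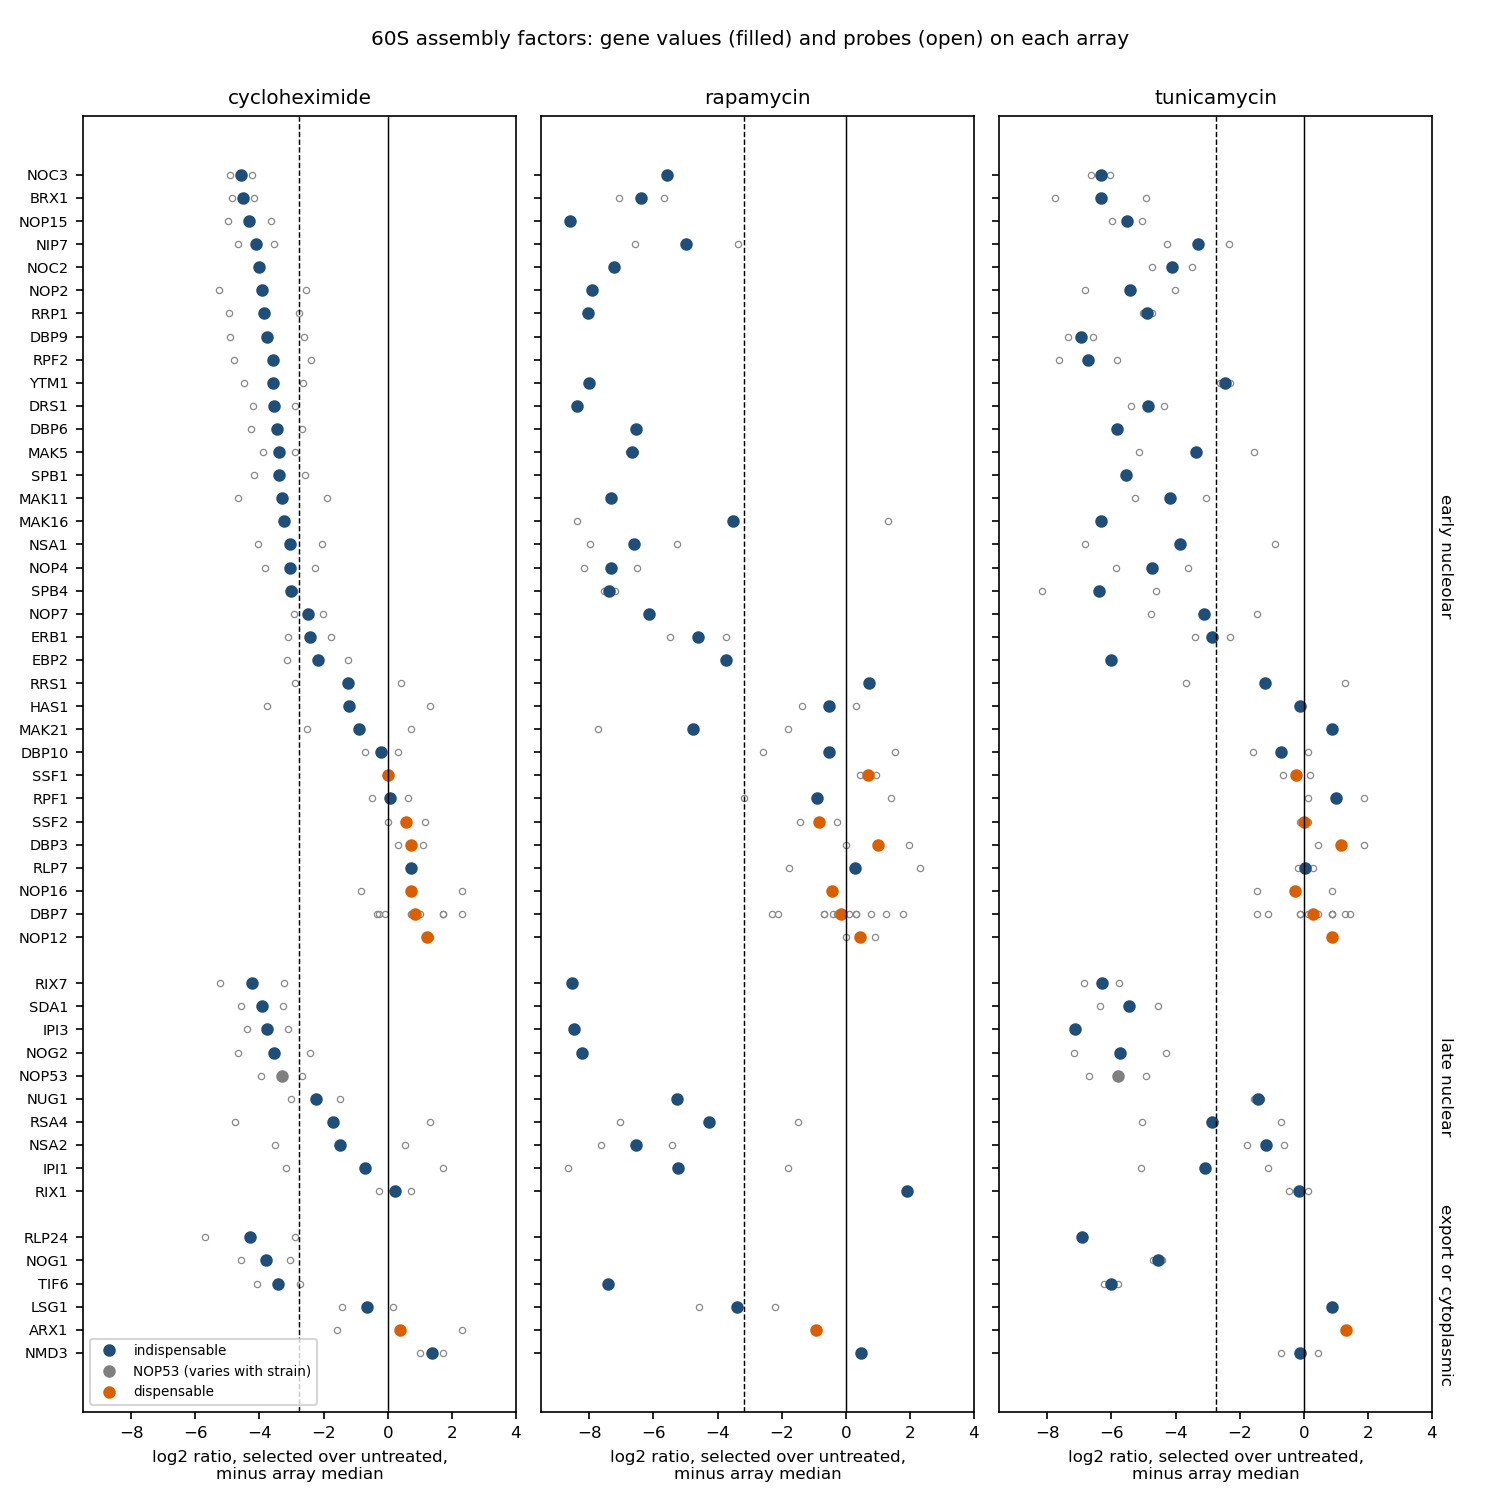
Gene values (filled circles) and single probes (open circles) of the 50 members on the cycloheximide, rapamycin and tunicamycin arrays, as log2 ratios minus the array median, with the array median as a solid line and 3 units below it as a dashed line. Members are ordered within early nucleolar, late nuclear and export or cytoplasmic factors by the cycloheximide value; most indispensable genes lie left of the dashed line and the 7 dispensable genes lie near 0 on each array.

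Most depleted members were genes that yeast cannot live without, and no dispensable member was called depleted. The labels name the pool one of essential genes, which need not hold the dispensable ones. Whether it held them was not tested. By textbook knowledge 42 members are indispensable and 7 are dispensable, and NOP53, whose null mutant differs between strains, was placed in neither class. The indispensable members had medians of -3.33, -6.25 and -4.36 under cycloheximide, rapamycin and tunicamycin, and the dispensable members 0.72, -0.16 and 0.29. Among indispensable members with enough probes, depletion was called in 25 of 41 on the cycloheximide array, 11 of 20 on the rapamycin array and 21 of 35 on the tunicamycin array. Among the dispensable ones it was called in 0 of 7 on the cycloheximide array, 0 of 6 on the rapamycin array and 0 of 5 on the tunicamycin array, which with so few genes is near the shares of 15.2%, 6.45% and 13.6% over all genes. On the cycloheximide array the indispensable members spanned -4.57 to 1.38 and the 7 dispensable genes 0.01 to 1.24. On the rapamycin array the spans were -8.60 to 1.91 for the indispensable and -0.94 to 0.99 for the dispensable members. On the tunicamycin array they were -7.15 to 1.01 and -0.29 to 1.31 in the same order of classes. Both classes overlapped at the upper end on each array. NOP53, which recruits the exosome helicase Mtr4, stood at -3.31 ± 0.91 (n = 2) with cycloheximide and -5.80 ± 1.27 (n = 2) with tunicamycin, and had no measured probe with rapamycin. It was depleted on both arrays that measured it, like most indispensable members.

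The dispensable genes were described one by one because a library of essential genes need not hold them. SSF1 (YHR066W) and SSF2 (YDR312W) encode nearly alike Brix-domain proteins, either of which suffices for growth. SSF1 stood at 0.01 ± 0.09 (n = 2) with cycloheximide, 0.68 ± 0.35 (n = 2) with rapamycin and -0.24 ± 0.60 (n = 2) with tunicamycin. SSF2 stood at 0.58 ± 0.81 (n = 2) with cycloheximide, -0.84 ± 0.81 (n = 2) with rapamycin and 0.01 ± 0.19 (n = 2) with tunicamycin. Neither paralog left the range of 1 unit around 0 on any array. NOP16, a small nucleolar protein, had 0.74 ± 2.24 (n = 2) with cycloheximide, -0.43 (n = 1) with rapamycin and -0.29 ± 1.64 (n = 2) with tunicamycin. NOP12, an RNA-recognition-motif protein of 5.8S rRNA maturation, had 1.24 ± 0.12 (n = 2) with cycloheximide, 0.45 ± 0.64 (n = 2) with rapamycin and 0.87 (n = 1) with tunicamycin. ARX1, an export factor that sits at the tunnel exit, had 0.37 ± 2.76 (n = 2) with cycloheximide, -0.94 ± 0.09 (n = 2) with rapamycin and 1.31 (n = 1) with tunicamycin. All 3 stayed within 2 units of 0, although the cycloheximide probes of NOP16, at 2.32 and -0.85, and of ARX1, at -1.58 and 2.32, lay on opposite sides of it. The helicase gene DBP3 had 0.72 ± 0.56 (n = 2) with cycloheximide, 0.99 ± 1.40 (n = 2) with rapamycin and 1.17 with tunicamycin, where its probes stood at 0.46 and 1.87. DBP7 is the only member with 12 probes, and stood at 0.85 ± 0.90 (n = 10) with cycloheximide, -0.16 ± 1.22 (n = 12) with rapamycin and 0.29 ± 0.94 (n = 11) with tunicamycin. Its many probes bracketed 0 on each array.

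By stage of assembly, early, late and export factors all held depleted genes on each array. Of the early nucleolar factors with at least 2 measured probes, 18 of 33 on the cycloheximide array, 8 of 19 on the rapamycin array and 15 of 28 on the tunicamycin array were depleted. By this rule, which also gave the late and export counts below, 15.2%, 6.45% and 13.6% of all genes were depleted. At the stricter threshold 5 early and 3 late factors were depleted under cycloheximide, and when 1 probe sufficed 18 early and 5 late factors were under rapamycin. Among the late nuclear factors the counts were 5 of 10 on the cycloheximide array, 2 of 4 on the rapamycin array and 4 of 9 on the tunicamycin array, and among the export or cytoplasmic factors 3 of 6 on the cycloheximide array, 1 of 3 on the rapamycin array and 3 of 4 on the tunicamycin array. The export factor called under rapamycin was LSG1, whose call was lost under some alternatives. The medians of the early factors were -3.05, -4.97 and -3.61 under cycloheximide, rapamycin and tunicamycin, those of the late factors -2.78, -5.90 and -4.27, and those of the export factors -2.02, -2.16 and -2.34. The dispensable genes are spread unevenly over the stages, with 6 of 34 early, 0 of 10 late and 1 of 6 export factors. Among the indispensable genes alone, the medians were -3.33, -6.37 and -4.45 for the early, -2.25, -5.90 and -3.09 for the late and -3.41, -3.39 and -4.56 for the export factors. These rest on 28, 25 and 28 early, 9, 8 and 9 late and 5, 3 and 5 export genes with a value. Export factors had the lowest of these medians under cycloheximide and tunicamycin and the highest under rapamycin, where they were 3 genes. The export group also splits in itself, since RLP24, NOG1 and TIF6, which join in the nucleolus and leave in the cytoplasm, were all low, while NMD3, LSG1 and ARX1 were not low under cycloheximide or tunicamycin. With RLP24, NOG1 and TIF6 counted as early, the export median was 0.37 under cycloheximide and 0.87 under tunicamycin, and 0 export factors were depleted on either array.

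The DEAD-box RNA helicases, which remodel precursor rRNA at the cost of ATP, number 9 among the members. Depletion was called in 5 of 9 on the cycloheximide array, 3 of 7 on the rapamycin array and 4 of 8 on the tunicamycin array, against 15.2%, 6.45% and 13.6% of all genes. DRS1 (YLL008W), which acts in 27S rRNA maturation, stood at -3.54 ± 0.94 (n = 2) with cycloheximide, -8.39 ± 0.05 (n = 2) with rapamycin and -4.87 ± 0.74 (n = 2) with tunicamycin. It was depleted on all 3 arrays, and its rapamycin probes at -8.43 and -8.35 were nearly alike. SPB4 (YFL002C), another helicase of 27S rRNA maturation, stood at -3.01 ± 0.12 (n = 2) with cycloheximide, -7.38 ± 0.25 (n = 2) with rapamycin and -6.38 ± 2.52 (n = 2) with tunicamycin, and was depleted on all 3 arrays as well. MAK5 (YBR142W) had -3.40 ± 0.69 (n = 2) with cycloheximide, -6.67 ± 0.14 (n = 2) with rapamycin and -3.35 ± 2.54 (n = 2) with tunicamycin. It was depleted under cycloheximide and rapamycin, while its tunicamycin probes stood at -5.15 and -1.55, the second of which is less than 2 units below 0. DBP9 had -3.77 ± 1.62 (n = 2) with cycloheximide and -6.96 ± 0.56 (n = 2) with tunicamycin, and had no measured probe with rapamycin. DBP6, which works with the Npa1 complex on the earliest particles, had -3.46 ± 1.13 (n = 2) with cycloheximide, -6.54 (n = 1) with rapamycin and -5.83 ± 0.07 (n = 2) with tunicamycin. Both were depleted under cycloheximide and tunicamycin, and rapamycin left them with fewer than 2 probes. HAS1, a helicase of both subunits, had -1.22 ± 3.59 (n = 2) with cycloheximide, -0.52 ± 1.19 (n = 2) with rapamycin and -0.13 (n = 1) with tunicamycin. DBP10 had -0.20 ± 0.73 (n = 2) with cycloheximide, -0.52 ± 2.90 (n = 2) with rapamycin and -0.72 ± 1.22 (n = 2) with tunicamycin. These 2 indispensable helicases therefore lay with the dispensable DBP3 and DBP7 within 2 units of 0 as gene values. Single probes reached farther, as under cycloheximide for HAS1 at 1.32 and -3.75 and under rapamycin for DBP10 at -2.57 and 1.52.

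The GTPases and the AAA ATPase time the release of other factors. NOG2 (YNR053C), which holds the place of Nmd3 on the nuclear particle, stood at -3.56 ± 1.58 (n = 2) with cycloheximide, -8.24 (n = 1) with rapamycin and -5.73 ± 2.02 (n = 2) with tunicamycin. NOG1 (YPL093W), which reaches into the peptide exit tunnel, stood at -3.81 ± 1.06 (n = 2) with cycloheximide and -4.56 ± 0.21 (n = 2) with tunicamycin, and had no measured probe with rapamycin. Both were depleted under cycloheximide and tunicamycin. NUG1, another nuclear GTPase, had -2.25 ± 1.09 (n = 2) with cycloheximide, -5.26 (n = 1) with rapamycin and -1.43 ± 0.16 (n = 2) with tunicamycin, and was not called on any array. LSG1 (YGL099W), the cytoplasmic GTPase that releases Nmd3, had -0.63 ± 1.11 (n = 2) with cycloheximide, -3.39 ± 1.69 (n = 2) with rapamycin and 0.87 (n = 1) with tunicamycin. It was called depleted under rapamycin alone, and this call was lost at a stricter threshold, after quantile normalization and with lower-numbered and higher-numbered probes centred separately. The deposited tunicamycin value of LSG1 was 0, so its 0.87 comes from the centring alone. Whether LSG1 differs between drugs was not tested. RIX7 (YLL034C), the AAA ATPase that removes Nsa1, had -4.23 ± 1.41 (n = 2) with cycloheximide, -8.55 (n = 1) with rapamycin and -6.30 ± 0.77 (n = 2) with tunicamycin. Its rapamycin value came from a single probe, which does not suffice for a call, and it was depleted under the other 2 drugs.

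Among the rRNA methyltransferases, NOP2 (YNL061W) stood at -3.91 ± 1.92 (n = 2) with cycloheximide, -7.91 (n = 1) with rapamycin and -5.42 ± 1.99 (n = 2) with tunicamycin. SPB1 (YCL054W), which methylates the A loop, stood at -3.38 ± 1.12 (n = 2) with cycloheximide and -5.56 (n = 1) with tunicamycin, and had no measured probe with rapamycin. Both were depleted under cycloheximide, and NOP2 also under tunicamycin, where SPB1 had too few probes. NIP7 (YPL211W), the PUA-domain partner of Nop2, had -4.10 ± 0.79 (n = 2) with cycloheximide, -4.97 ± 2.26 (n = 2) with rapamycin and -3.30 ± 1.38 (n = 2) with tunicamycin and was depleted on all 3 arrays. NOP4 (YPL043W), an RNA-recognition-motif protein of early particles, had -3.05 ± 1.10 (n = 2) with cycloheximide, -7.33 ± 1.17 (n = 2) with rapamycin and -4.73 ± 1.57 (n = 2) with tunicamycin and was also depleted on all 3. NOP15, which binds the ITS2 spacer, had -4.31 ± 0.96 (n = 2) with cycloheximide, -8.60 (n = 1) with rapamycin and -5.51 ± 0.67 (n = 2) with tunicamycin. It was depleted under cycloheximide and tunicamycin, and its only rapamycin probe gave the lowest gene value of the members on that array. RLP24, the placeholder of the ribosomal protein Rpl24, had -4.29 ± 1.98 (n = 2) with cycloheximide and -6.93 ± 0.02 (n = 2) with tunicamycin, and had no measured probe with rapamycin. RLP7, a relative of a ribosomal protein that also binds ITS2, had 0.74 ± 0.00 (n = 2) with cycloheximide, 0.28 ± 2.89 (n = 2) with rapamycin and 0.05 ± 0.33 (n = 2) with tunicamycin, so these ribosomal-like members lay at opposite ends of the group, RLP24 being depleted on both arrays that measured it.

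The subunits of the scaffold complexes did not all have like values. In the PeBoW complex, which is needed for 27S rRNA processing, ERB1 (YMR049C) stood at -2.43 ± 0.95 (n = 2) with cycloheximide, -4.60 ± 1.24 (n = 2) with rapamycin and -2.85 ± 0.78 (n = 2) with tunicamycin. Its partner NOP7 had -2.48 ± 0.64 (n = 2) with cycloheximide, -6.13 (n = 1) with rapamycin and -3.10 ± 2.34 (n = 2) with tunicamycin. YTM1, which the AAA ATPase Rea1 pulls off the particle, had -3.57 ± 1.31 (n = 2) with cycloheximide, -8.01 (n = 1) with rapamycin and -2.45 ± 0.24 (n = 2) with tunicamycin. All 3 were below 0 on each array, and the calls were ERB1 under rapamycin and tunicamycin and YTM1 under cycloheximide. Of the Noc proteins, which bind each other in pairs on successive particles, NOC2 had -4.02 ± 0.01 (n = 2) with cycloheximide, -7.24 (n = 1) with rapamycin and -4.10 ± 0.87 (n = 2) with tunicamycin. NOC3 had -4.57 ± 0.48 (n = 2) with cycloheximide, -5.58 (n = 1) with rapamycin and -6.34 ± 0.42 (n = 2) with tunicamycin. MAK21, the Noc1 protein of early particles, had -0.89 ± 2.31 (n = 2) with cycloheximide, -4.76 ± 4.18 (n = 2) with rapamycin and 0.87 (n = 1) with tunicamycin, and was not called on any array. NOC2 and NOC3 were depleted under cycloheximide and tunicamycin. MAK21 had too few probes for a call under tunicamycin, and its cycloheximide probes stood at 0.74 and -2.53.

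In the Nsa1 module, RRP1 had -3.86 ± 1.56 (n = 2) with cycloheximide, -8.04 (n = 1) with rapamycin and -4.88 ± 0.20 (n = 2) with tunicamycin. NSA1, the WD40 protein that Rix7 releases, had -3.05 ± 1.43 (n = 2) with cycloheximide, -6.61 ± 1.91 (n = 2) with rapamycin and -3.87 ± 4.18 (n = 2) with tunicamycin. MAK16 had -3.23 (n = 1) with cycloheximide, -3.53 ± 6.86 (n = 2) with rapamycin and -6.31 (n = 1) with tunicamycin, with rapamycin probes at -8.38 and 1.32 that contradict each other. RPF1, which contacts Mak16, had 0.08 ± 0.80 (n = 2) with cycloheximide, -0.89 ± 3.24 (n = 2) with rapamycin and 1.01 ± 1.23 (n = 2) with tunicamycin. RRP1 was depleted under cycloheximide and tunicamycin, NSA1 under cycloheximide and rapamycin, and RPF1 on no array. Of the Brix-domain proteins, BRX1 (YOL077C), which gave the family its name, stood at -4.51 ± 0.48 (n = 2) with cycloheximide, -6.37 ± 0.98 (n = 2) with rapamycin and -6.33 ± 2.01 (n = 2) with tunicamycin, and was depleted on all 3 arrays. RPF2, which loads the 5S RNP with Rrs1, had -3.59 ± 1.69 (n = 2) with cycloheximide and -6.73 ± 1.28 (n = 2) with tunicamycin, and had no measured probe with rapamycin. RRS1 itself had -1.25 ± 2.35 (n = 2) with cycloheximide, 0.74 (n = 1) with rapamycin and -1.19 ± 3.51 (n = 2) with tunicamycin, with cycloheximide probes at -2.91 and 0.41 and tunicamycin probes at -3.68 and 1.29. EBP2, a partner of Brx1, had -2.18 ± 1.34 (n = 2) with cycloheximide, -3.74 (n = 1) with rapamycin and -6.03 (n = 1) with tunicamycin. MAK11, a WD40 protein that acts with Rlp24, had -3.29 ± 1.96 (n = 2) with cycloheximide, -7.34 (n = 1) with rapamycin and -4.16 ± 1.57 (n = 2) with tunicamycin. MAK11 was depleted under cycloheximide and tunicamycin, and EBP2 was called on no array.

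The Rix1 complex joins the late nuclear particle together with Rea1. IPI3 (YNL182C) stood at -3.76 ± 0.90 (n = 2) with cycloheximide, -8.47 ± 0.05 (n = 2) with rapamycin and -7.15 (n = 1) with tunicamycin, and was depleted under cycloheximide and rapamycin. IPI1 had -0.71 ± 3.47 (n = 2) with cycloheximide, -5.23 ± 4.84 (n = 2) with rapamycin and -3.09 ± 2.78 (n = 2) with tunicamycin, with unlike probes on each array, as under rapamycin at -8.66 and -1.81. RIX1 had 0.24 ± 0.71 (n = 2) with cycloheximide, 1.91 (n = 1) with rapamycin and -0.16 ± 0.41 (n = 2) with tunicamycin, close to 0 or above it. Under rapamycin these 3 subunits ran from -8.47 to 1.91, and all members from -8.60 to 1.91. RSA4, the anchor of Rea1, had -1.72 ± 4.30 (n = 2) with cycloheximide, -4.27 ± 3.94 (n = 2) with rapamycin and -2.87 ± 3.06 (n = 2) with tunicamycin, again with unlike probes, which stood at 1.32 and -4.77 under cycloheximide. NSA2, needed for ITS2 processing, had -1.50 ± 2.87 (n = 2) with cycloheximide, -6.54 ± 1.56 (n = 2) with rapamycin and -1.19 ± 0.83 (n = 2) with tunicamycin and was depleted under rapamycin. SDA1, a HEAT-repeat protein of nuclear particles, had -3.92 ± 0.94 (n = 2) with cycloheximide and -5.45 ± 1.27 (n = 2) with tunicamycin, and had no measured probe with rapamycin. It was depleted on both arrays that measured it.

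Of the export factors, TIF6, which keeps the 40S subunit from joining, stood at -3.41 ± 0.96 (n = 2) with cycloheximide, -7.43 (n = 1) with rapamycin and -6.02 ± 0.32 (n = 2) with tunicamycin, and was depleted under cycloheximide and tunicamycin. NMD3 (YHR170W), the adaptor of the exportin Crm1, stood at 1.38 ± 0.51 (n = 2) with cycloheximide, 0.49 ± 0.01 (n = 2) with rapamycin and -0.13 ± 0.83 (n = 2) with tunicamycin. It had the highest cycloheximide value of the 50 members and was not enriched, as its value was under 3 units.

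Across arrays, 5 members were depleted on all 3, namely NOP4, BRX1, NIP7, DRS1 and SPB4. Among genes with at least 2 measured probes on each array this was 5 of 19 members (26.3%), against 4.76% of 2542 genes. All 5 are early nucleolar factors, but only 15 early, 3 late and 1 export factor had enough probes on each array. A further 20 were depleted on 2 arrays, 4 on 1 and 21 on none. Some of these, such as MAK16 and EBP2, had too few probes for a call on some arrays. When the probe number was set aside, 19 of the 43 members measured on all 3 arrays lay at least 3 units below 0 on each. The shares over all genes for these counts are not given here, so they do not show a trait of the members. Of the 42 indispensable members, 7 had gene values within 2 units of 0 on every array that measured them, namely RPF1, RRS1, RLP7, HAS1, DBP10, RIX1 and NMD3. Single probes lay more than 3 units below 0 for HAS1 at -3.75 under cycloheximide and RPF1 at -3.19 under rapamycin. For RRS1 the same probe did so at -2.91 under cycloheximide and -3.68 under tunicamycin. The medians of the 7 were 0.08, 0.28 and -0.13 under cycloheximide, rapamycin and tunicamycin, against -3.46, -6.61 and -4.88 for the other 35 indispensable members, of which 29 had a rapamycin value. These 7 were picked by their values, and the contrast is a description. Among the measured spots of the 7, 64.3%, 33.3% and 76.9% held a deposited value that, rounded to 3 decimals, is log2 of a quotient of whole numbers no larger than 10. That share was 5.8, 4.55 and 9.38% in the other 35, 77.3, 47.8 and 85.7% in the dispensable members and 66.7, 40.7 and 63.1% over all named genes. Very low values cannot be such a quotient, so the share is not independent of the value. Whether the pool held the strains of these 7 genes was not tested.

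Empty values were more frequent among the indispensable members under rapamycin and less frequent under the other drugs. On the rapamycin array 28 of 84 spots of indispensable members (33.3%) were empty, against 1 of 24 spots of dispensable members (4.17%) and 12.7% over all named genes. This was not particular to the members. The 40S assembly genes described below had 44 of 116 empty rapamycin spots (37.9%), and the other 60S assembly genes 22 of 68 (32.4%). Under cycloheximide it was 1 of 84 (1.19%) for indispensable members and 2 of 24 (8.33%) for dispensable ones. Under tunicamycin it was 7 of 84 (8.33%) and 3 of 24 (12.5%). DBP7 alone supplies 12 of the 24 dispensable spots. The 7 members with no measured probe under rapamycin were RPF2, RLP24, NOG1, NOP53, DBP9, SPB1 and SDA1. All 7 were depleted under cycloheximide, and all but SPB1, which had a single probe there, under tunicamycin. A further 17 members had 1 measured probe under rapamycin, of which 14 lay at least 3 units below 0. Over all named genes this was 340 of 1095, and among the 40S assembly genes 17 of 20. In all, 29 members lay at least 3 units below 0 under rapamycin, of which 11 were called.

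**Figure D2:**
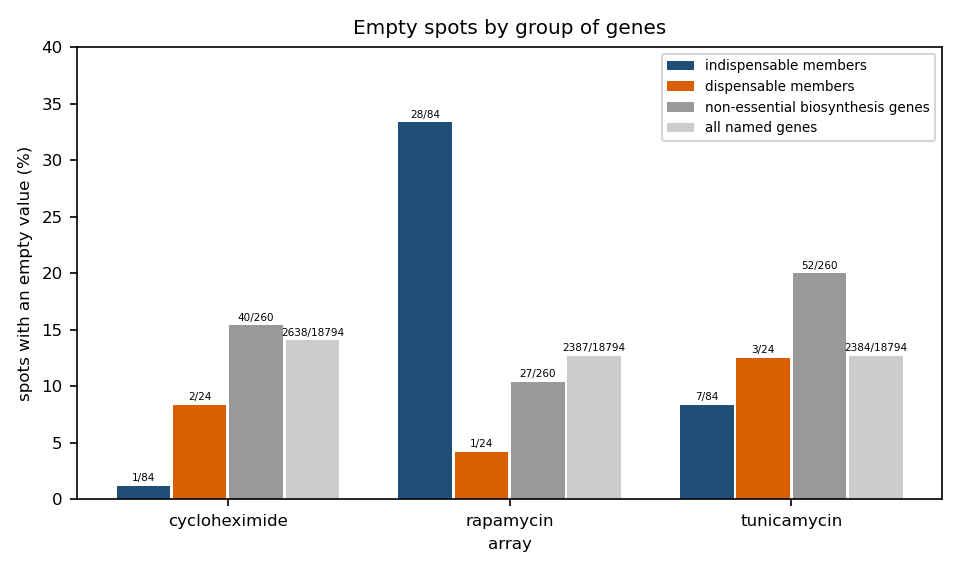
Share of spots with an empty value, in percent, for indispensable members, dispensable members, non-essential biosynthesis genes and all named genes on each array, with empty spots over all spots above each bar. The rapamycin bar of the indispensable members, at 33.3%, is the highest of those drawn. The 40S assembly genes, not drawn, had 37.9% there. No error bar is drawn because each array was run once.

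The probes of a member did not always stand together. In all 4439 genes with exactly 2 probes the probe numbers differ by the same step, so every pair has a lower-numbered and a higher-numbered probe. Among the 26 members depleted under cycloheximide the higher-numbered probe was the lower in value in 23, with a median difference, higher-numbered minus lower-numbered, of -1.53. Under rapamycin it was lower in 6 of 11 depleted members, and under tunicamycin in 8 of 22, with median differences of -0.35 and 0.37. The offset under cycloheximide held for most depleted members and enters the SD printed for them. Over all spots of that array the lower-numbered and the higher-numbered spots each had a median of 0.00. On the other arrays these medians differed, at -0.26 and 0.20 under rapamycin and -0.13 and 0.14 under tunicamycin.

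**Figure D3:**
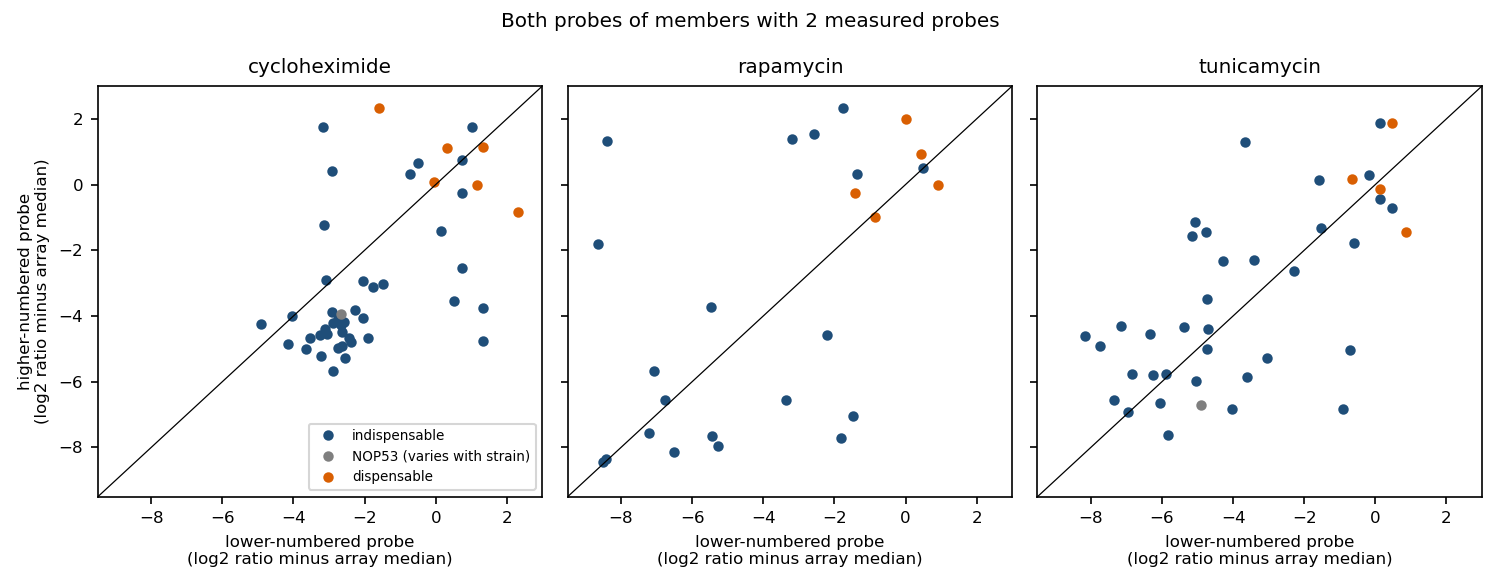
Higher-numbered against lower-numbered probe of each member with 2 probes measured on the array, as log2 ratios minus the array median, with a line where both are equal. Under cycloheximide 23 of 26 depleted members lie below the line, while the dispensable members gather around 0 on each array.

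Between drugs, the rapamycin values were the lowest for most members. The median difference of rapamycin minus tunicamycin was -1.67 over 43 members, against -0.31 over all genes. It was -2.76 for rapamycin minus cycloheximide, against -0.38 over all genes, and -1.39 after quantile normalization of the arrays. It was -0.94 over 50 members for tunicamycin minus cycloheximide, against -0.16. The lowest deposited values were -10.00 under rapamycin, -9.98 under tunicamycin and -8.22 under cycloheximide, so the cycloheximide array did not reach as far down as the others. Drug and array cannot be told apart in any of these differences. The members with the largest differences between rapamycin and tunicamycin were MAK21 (-5.64), YTM1 (-5.56), NSA2 (-5.35) and LSG1 (-4.27), all lower under rapamycin. Of these, NSA2 alone had 2 measured probes on both arrays, with -5.43 and -7.64 under rapamycin and -0.60 and -1.78 under tunicamycin, which do not overlap. The other genes share 1 measured probe between the arrays. Under rapamycin and tunicamycin that probe had -8.01 and -2.29 for YTM1, -1.81 and 0.87 for MAK21, and -2.20 and 0.87 for LSG1. Both tunicamycin values of 0.87 come from a deposited 0 and the centring. MAK16 (2.78) and EBP2 (2.28) had higher gene values under rapamycin, with 1 measured probe each under tunicamycin. The MAK16 probe measured on both arrays was lower under rapamycin, at -8.38 against -6.31. No EBP2 probe was measured on both arrays.

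Other genes of the pathway came from a list of 34, all of which had probes, and which mixes needed and dispensable factors. Depletion was called in 13 of 30 on the cycloheximide array, 4 of 18 on the rapamycin array and 14 of 27 on the tunicamycin array, against 15.2%, 6.45% and 13.6% of all genes. The medians were -1.46, -2.20 and -1.07 over 33, 28 and 34 genes with a value. SDO1, which helps release Tif6, had -4.59 ± 1.15 (n = 2) with cycloheximide and -5.70 ± 0.22 (n = 2) with tunicamycin, and had no measured probe with rapamycin. NOP8, of the earliest particles, had -4.53 ± 0.60 (n = 2) with cycloheximide, -3.75 (n = 1) with rapamycin and -4.41 ± 2.21 (n = 2) with tunicamycin. SQT1, the chaperone of Rpl10, had -4.39 ± 1.88 (n = 2) with cycloheximide and -6.47 ± 0.24 (n = 2) with tunicamycin, and had no measured probe with rapamycin. All 3 were depleted under cycloheximide and tunicamycin. RRP15, RRP14 and RRP17, which act in the nucleolus, had -6.70 ± 0.42 (n = 2), -6.94 ± 0.70 (n = 2) and -6.90 ± 0.70 (n = 2) under tunicamycin and were depleted there. Under rapamycin URB1 (-8.56), CRM1 (-8.44) and AFG2 (-8.31), which encode the Npa1 protein, the exportin and the AAA ATPase that removes Rlp24, rested on a single probe each, too few for a call.

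The 40S assembly genes, the counterpart of the members for the small subunit, had medians of -3.43, -5.82 and -4.55 over 56, 46 and 57 of 57 genes, with depletion in 36 of 52 on the cycloheximide array, 13 of 26 on the rapamycin array and 34 of 50 on the tunicamycin array. For these and the lists that follow, the shares over all genes were 15.2%, 6.45% and 13.6%. The lowest callable 40S assembly genes were NOC4 at -4.81 ± 0.12 (n = 2) under cycloheximide and UTP13 at -7.50 ± 0.44 (n = 2) under tunicamycin. RRP3 had the lowest rapamycin value among them, -8.60 (n = 1). The indispensable members had medians of -3.33, -6.25 and -4.36 over 42, 36 and 42 genes. Unlike the members, the 40S assembly genes were not split by null mutant. The 10 single-copy proteins of the 60S subunit itself had higher medians of -1.09, -1.67 and -1.42 and depletion in 3 of 9 on the cycloheximide array, 0 of 5 on the rapamycin array and 2 of 7 on the tunicamycin array, RPL10 being the lowest at -5.39 ± 1.25 (n = 2) with cycloheximide, -8.55 (n = 1) with rapamycin and -7.12 ± 0.31 (n = 2) with tunicamycin. The list holds dispensable proteins as well. The 69 non-essential biosynthesis genes of amino acids and adenine had medians of 0.08, 0.00 and 0.25 over 66, 69 and 67 genes with a value and 0 depleted genes on each array. TRP4 was farthest from 0 among them under cycloheximide and rapamycin, at 2.32 (n = 1) and -2.81 ± 2.18 (n = 2), and SER1 under tunicamycin, at -2.45 (n = 1). The dispensable members lay within the range of this background list on each array.

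**Figure D4:**
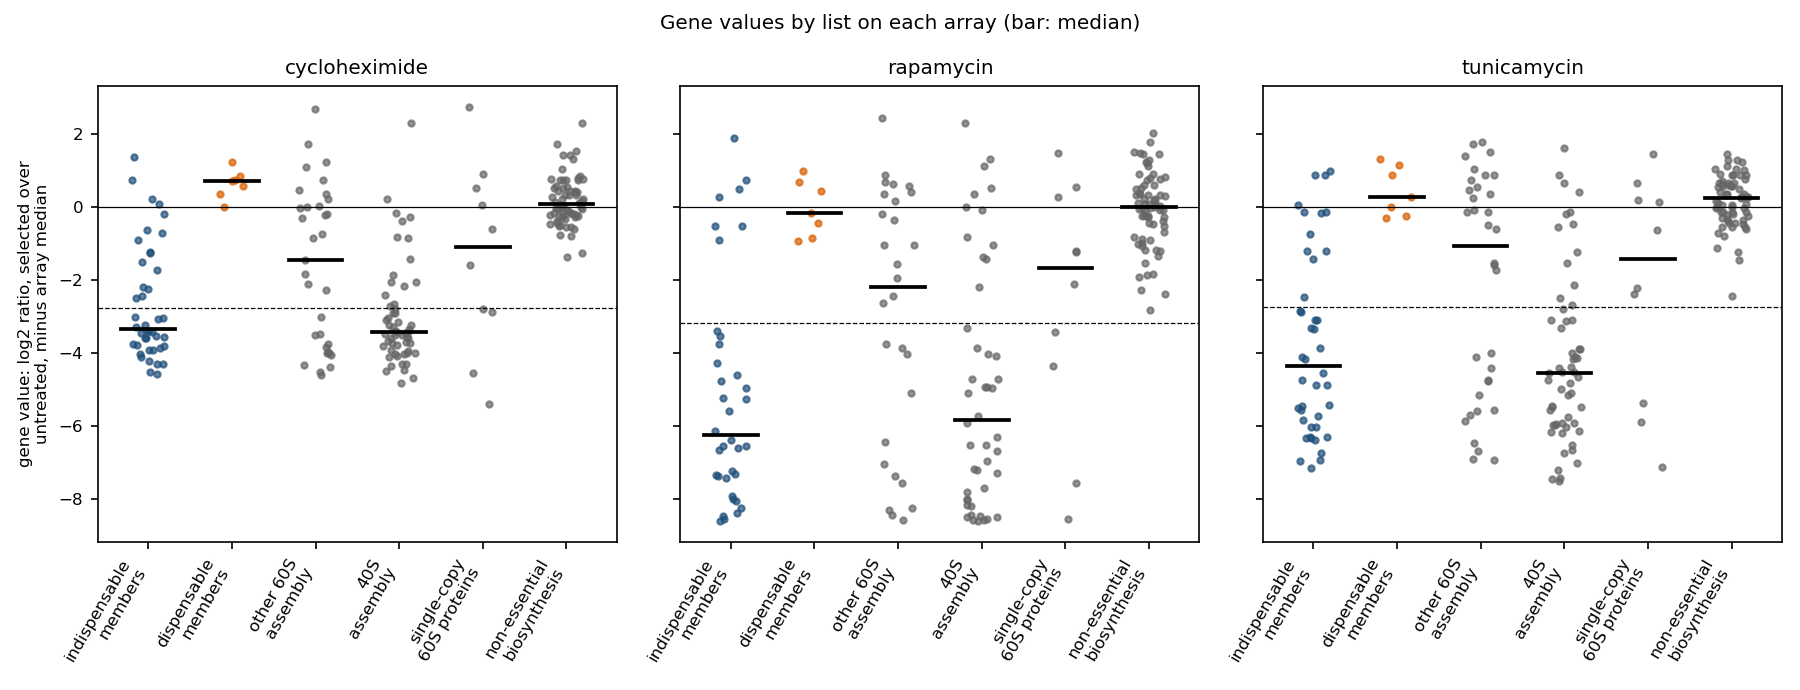
Gene values, as log2 ratios minus the array median, of indispensable members, dispensable members, other 60S assembly genes, 40S assembly genes, single-copy 60S ribosomal proteins and non-essential biosynthesis genes on each array, with a black bar at the median and the dashed line 3 units below 0. The indispensable members and the 40S assembly genes have the lowest medians, and the dispensable members lie with the biosynthesis genes around 0.

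Depletion was also called among the chromosome neighbours of the members. Taken in order along the chromosomes, 91 non-member neighbours carried probes. Depletion was called in 22 of 71 (31%) of these with enough probes on the cycloheximide array, against 15.2% of all genes. It was called in 9 of 64 (14.1%) on the rapamycin array, against 6.45%, and in 20 of 80 (25%) on the tunicamycin array, against 13.6%. Neighbours can be essential genes of the pool themselves. The neighbours' medians were -0.42, -0.89 and -0.16. Beside a depleted member, a neighbour with enough probes was depleted in 14 of 38 pairs on the cycloheximide array, 2 of 13 on the rapamycin array and 10 of 37 on the tunicamycin array. Beside a member that had enough probes and was not depleted, it was so in 8 of 31, 3 of 21 and 8 of 32 pairs. DBP9, for instance, lay between the depleted genes SMD2, which encodes a splicing protein, at -4.79 ± 0.77 (n = 2) under cycloheximide, and YSH1, which encodes the endonuclease of mRNA 3' end formation, at -3.74 ± 1.27 (n = 2). Other low neighbours, picked here for the contrast, lay beside a member near 0. RPC37, a subunit of RNA polymerase III beside the dispensable DBP7, was depleted under cycloheximide at -4.03 ± 0.93 (n = 2) and tunicamycin at -3.60 ± 2.15 (n = 2). PMI40, the mannose-phosphate isomerase gene beside NOP16, was depleted under cycloheximide at -3.86 ± 1.34 (n = 2) and tunicamycin at -5.09 ± 1.34 (n = 2). RRP3, a helicase gene of 40S assembly beside SSF1, was depleted at -3.68 ± 1.15 (n = 2) and -5.15 ± 2.30 (n = 2) on the same arrays. TFB1, a TFIIH subunit gene beside SSF2, was depleted under rapamycin at -7.59 ± 0.98 (n = 2) and tunicamycin at -5.19 ± 1.06 (n = 2). RPS15, a 40S protein gene beside NOP12, was depleted under cycloheximide at -3.30 ± 0.43 (n = 2). UTP9, a 40S assembly gene beside RIX1, was depleted under cycloheximide at -4.67 ± 2.00 (n = 2) and tunicamycin at -6.17 ± 1.57 (n = 2). In each of these pairs the member stood within 2 units of 0 on the same array. Whether place in the genome bears on the values was not tested.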

How the data were processed

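Tag abundance was measured in genomic DNA on 3 two-colour arrays, 1 per drug. Per the labels' protocols, DNA was extracted with a yeast kit and the tags were amplified by PCR with dye-linked universal primers. For each of 22575 spots the authors deposited a log2 ratio on every array. The base was read from the values. How the arrays were scanned, background-corrected and normalized is not given in these sources, and the array medians of the deposited log2 ratios were -0.74, -1.32 and -0.87 for cycloheximide, rapamycin and tunicamycin. Channel signals were not analysed here, so no brightness filter was possible, and the number of arrays limits the precision.

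The value 16.61, the log2 of 100000, stood on 739, 196 and 526 spots and was read as a code and left out, as were 3156, 2821 and 2951 empty spots. No member spot held the code. Probes were named through GEO's platform annotation, which names 18794 probes with 1 gene each, and symbols were updated through RefSeq (assembly R64) for 5321 of 5325 genes. No coordinates are given because the values carry no genome build, and no sequences were used here. Probe values were centred on the array median and averaged per gene with Python 3.11.15, numpy 2.4.6 and pandas 2.3.3, and the call rule was run on simulated data. There all probes of a chosen gene were shifted by the same amount, so probe pairs of which only 1 is low were not covered. The members, stages, lists and rules were chosen with earlier results of these data known. The stage and null-mutant classes are textbook knowledge. Every member could be named, and from each other list the genes with the largest absolute values per array, the drug targets TOR2, ALG7 and RPL28, and neighbours only where called. Alternatives were no centring, coded spots kept, a stricter threshold, 1 probe per call, quantile normalization, another spread unit, the median of probes and other class assignments.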

Additional observations from a re-analysis of the deposited data

Results flagged for a closer look

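LSG1, the cytoplasmic GTPase gene, was depleted under rapamycin at -3.39 ± 1.69 (n = 2) and lay above the array median under tunicamycin at 0.87 (n = 1), a difference of -4.27 for rapamycin minus tunicamycin. The call was lost at the stricter threshold, after quantile normalization and with the probe sets centred separately. The gene stood out because it was called depleted on 1 array while all measured probes lay above 0 on another. The difference was not tested, since each drug has 1 array, and the tunicamycin value rests on 1 probe. That probe had -2.20 under rapamycin. Its deposited tunicamycin value was 0, so the 0.87 comes only from subtracting the array median of -0.87. MAK21 and NOP12 had the same tunicamycin value, also from a deposited 0. No other of the 50 members met both conditions. MAK21 and ARX1 also had all measured probes below 0 under rapamycin and above 0 under tunicamycin, without a call.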

How the results depend on the processing

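With 1 array per drug no replicate could be left out. No paired analysis was possible because no group has a second sample. Keeping coded spots, the spread unit of the non-essential list and the median of probes each left all 63 results compared within the limits set (1.5 times for a count, 1 spread unit for a median). The median of 2 probes is their mean, and 4439 of 5325 genes have exactly 2 probes, as do all members but DBP7. No member spot held the code, so keeping coded spots could act on members only through the array median and the spread unit. These 2 alternatives therefore say little about the members. Without centring, the rapamycin medians were -6.55 for members, -6.29 for early, -7.22 for late, -3.49 for export, -7.58 for indispensable, -1.48 for dispensable, -3.52 for other 60S, -7.14 for 40S, -2.99 for single-copy 60S and -1.32 for biosynthesis genes, and 4 late factors, 1 single-copy 60S protein and 3 biosynthesis genes were depleted there. At the stricter threshold of 4 units for the mean and 3 for each probe, 10 members (5 early, 3 late), 10 indispensable members and 18 of the 40S genes were depleted under cycloheximide, and 0 export factors and 2 other 60S genes under rapamycin. When 1 probe sufficed, depletion under rapamycin was called in 25 members, 18 early, 5 late and 2 export factors, 25 indispensable members, 12 other 60S genes, 30 of the 40S genes and 4 single-copy 60S proteins. Quantile normalization gave 0 depleted export factors under rapamycin and a median difference of -1.39 for rapamycin minus cycloheximide. Centring lower-numbered and higher-numbered probes separately, chosen after seeing the data, also gave 0 export factors under rapamycin. With the shuttling factors counted as early, the export medians were 0.37, -0.94 and 0.87, with 0 depleted under cycloheximide and 0 under tunicamycin. With NOP53 counted as dispensable, 1 dispensable gene was depleted under cycloheximide and 1 under tunicamycin. Over members with 2 measured probes the rapamycin median was -3.90. Beyond these fewer genes or other class members, the cause of a shift was not tested.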
